A study of Mus musculus with 6 samples.

Results

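The constitutive proteasome genes comprised every row of the count table whose symbol matched the Psma to Psmg numbering, apart from Psmb8, Psmb9 and Psmb10, which encode the inducible catalytic subunits and served as a comparison. This rule, which used no measured value, took 46 of the 39179 genes in the table. Of these, 44 passed the filter on low counts and were tested among 8793 genes. Tumor-associated macrophages (TAMs) had been sorted from subcutaneous Braf-driven melanomas grown in wild-type C57BL/6 hosts aged 8 weeks. The tumor cells either carried intact Ptgs1 and Ptgs2, the genes for the cyclooxygenases that initiate prostaglandin synthesis (Ptgs-competent, 3 libraries), or had been made deficient for both by CRISPR editing (Ptgs-deficient, 3 libraries). Cells were live CD45+ CD11b+ F4/80+ and negative for NK1.1 and Ly6G, with absent or dim Ly6C, and each library was a pool of tumors. The macrophages themselves were of host genotype in both groups, so that no gene had been deleted in the cells measured here.

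The proteasome degrades proteins tagged with ubiquitin and yields most of the peptides presented on MHC class I. Its core particle is a stack of outer alpha rings, which gate entry, and inner beta rings, which carry the peptidase sites in Psmb5 (chymotrypsin-like), Psmb6 (caspase-like) and Psmb7 (trypsin-like). A regulatory particle of ATPases (Psmc genes) and non-ATPase subunits (Psmd genes) binds ubiquitin chains and unfolds substrates, and alternative caps such as PA28 (Psme1 and Psme2) open the core without ubiquitin. In cells exposed to interferon-gamma, Psmb8, Psmb9 and Psmb10 replace the constitutive catalytic subunits in newly built core particles.

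Levels are given as CPM after TMM scaling, that is, read counts relative to the scaled library total. Reads came from the 3′ end of transcripts, so that a count does not grow with transcript length and levels of different genes need no length correction, although 3′ ends can differ in how well they are captured. Total counts lay between 4431184 and 8760679 per library, and a count of 3, the upper limit that a count of 0 allows, corresponded to between 0.357 and 0.647 CPM. The 46 genes took 0.644%, 0.475% and 0.598% of all counts in Ptgs-competent replicates 1, 2 and 3 and 0.441%, 0.613% and 0.624% in Ptgs-deficient replicates 1, 2 and 3. Their summed level was 5761 ± 1011 CPM (SD, n = 3) in the Ptgs-competent group and 5743 ± 1318 CPM (SD, n = 3) in the Ptgs-deficient group, with overlapping ranges. In bulk RNA from sorted cells, fewer cells of a type cannot be told apart from less RNA per cell.

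The libraries differed in their content of cell type markers. The 11 macrophage markers, among them the F4/80 gene (listed under its older symbol Emr1), summed to 16610, 17900 and 6433 CPM in Ptgs-competent TAMs and to between 21140 and 25330 CPM in the Ptgs-deficient libraries. Cd68 stood at 26.5 CPM in Ptgs-competent replicate 3 against at least 404.6 CPM in every other library. In that replicate Mertk (89.9 CPM) and Ptprc (153.5 CPM) lay within the range of the Ptgs-deficient libraries, and the other macrophage markers lay below it. The 8 tumor and stroma markers summed to 507, 1019 and 1860 CPM in the Ptgs-competent group and to between 65.4 and 113 CPM in the Ptgs-deficient group. Like the other lists, these 8 were chosen with earlier results of these data known. Among them, Fermt2 and Prkg2 had at most 0.119 CPM in any Ptgs-deficient library. Their gap between groups is therefore no independent measure of cell content. The 8 neutrophil markers summed to between 620 and 725 CPM against between 452 and 532 CPM, with Ly6g at 0 throughout, S100a8 and S100a9 lower in every Ptgs-deficient library and Retnlg higher in every one (16.2 to 59.9 CPM against 114 to 180.2 CPM). The 4 endothelial markers summed to between 92.9 and 197 CPM against between 37.3 and 71.9 CPM. Of the 8 melanoma markers, 7 were at 0 in all libraries, and Mitf had 1.91, 0 and 0.647 CPM against 10.6, 44.3 and 18.2 CPM, while 5 of 6 T cell markers were at 0 in all libraries. The 7 NK cell markers summed to at most 21.9 CPM, in Ptgs-deficient replicate 2. Of all tested genes, 6.62%, 21.6% and 19.6% had 0 counts in Ptgs-competent replicates 1, 2 and 3 and 17.2%, 3.40% and 7.24% in Ptgs-deficient replicates 1, 2 and 3. The part of these differences in the proteasome results was not tested, and the main counts are given again without Ptgs-competent replicate 3, an alternative that for the overlap of groups was added after seeing the data.

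No constitutive proteasome gene was called. The threshold for a call was an FDR (adjusted p) of at most 0.05 together with an absolute log2 fold change of at least 1.5, and 0.216% of all tested genes met it (19 genes). The smallest adjusted p among the 44 tested proteasome genes was 0.460 (edgeR quasi-likelihood test). An unadjusted p under 0.05 was reached by 4 of 44 genes (9.09%), against 8.83% of all tested genes. Psma4 and Psme2 were on the higher side in Ptgs-deficient TAMs, where 5.00% of all genes reached this p, and Psmd7 and Psmb3 on the lower side, where 3.82% did. Without Ptgs-competent replicate 3 the number was 1 (2.27%), namely Psme1, where 8.86% of all genes tested in that fit reached this p. The fold changes of the tested proteasome genes had a median of 0.017 on the log2 scale, beside 0.018 over all tested genes, and 23 were above 0 and 21 below 0 (22 above 0 without Ptgs-competent replicate 3, and 17 with a median of −0.21 without Ptgs-deficient replicate 2). They ran from −1.31 (Psmc4) to 2.03 (Psme1).

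Precision set how far these values can be read. The median biological coefficient of variation of the tested proteasome genes was 0.645, beside 1.18 over all tested genes, and 38 of 44 had more than 3 counts in every library. For 10 of 44 genes (22.7%, against 9.77% of all tested genes) the 95% interval of the log2 fold change lay wholly within 1.5 of 0. For the other 34 genes a change as large as the call requires was not excluded by the interval.

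**Figure D1:**
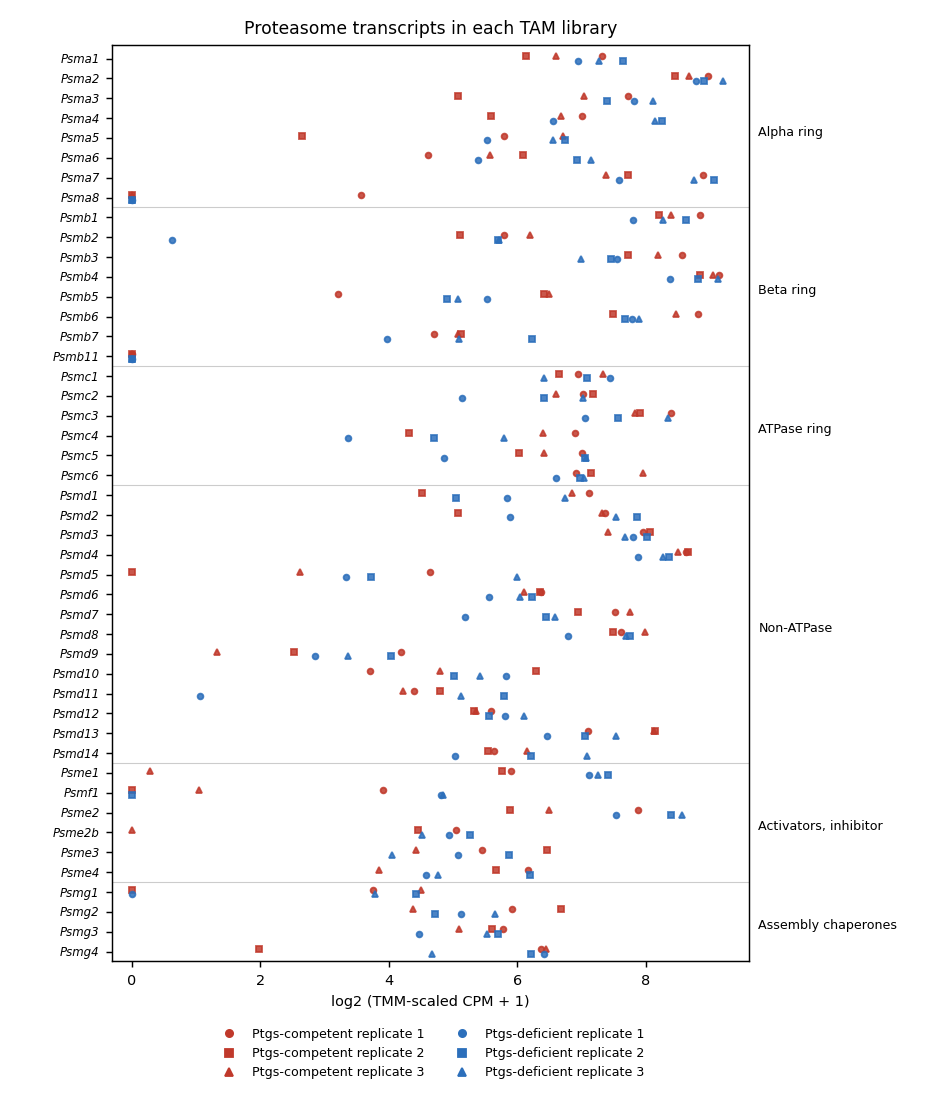
TMM-scaled CPM of the 46 proteasome genes in each of the 6 libraries, drawn as log2(CPM + 1), with Ptgs-competent libraries in red and Ptgs-deficient libraries in blue and a symbol for each replicate number. The groups overlapped for 40 of the 44 tested genes, and single libraries fell far below the rest for Psme1 (Ptgs-competent replicate 3) and Psmb2 (Ptgs-deficient replicate 1).

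The CPM of both groups lay apart for 4 of 44 genes (9.09%), beside 19.0% of all tested genes. Psme1 was higher in every Ptgs-deficient library (as were 970 of the 8793 tested genes), and Psmb3, Psmd4 and Psmd7 were lower in every Ptgs-deficient library (8.01% of all tested genes). Without Ptgs-competent replicate 3 the groups lay apart for 6 of 44 genes (13.6%), these 4 with Psmd6 and Psmg2, beside 30.0% of all tested genes. The promoters of Psmb3, Psmd4 and Psme1, which separated the groups over all 6 libraries, are shown with those of Psmb5 and Psmb6, the catalytic genes for which a window was found. Each window runs 5′ to 3′ on the gene's strand from 250 bases before to 50 bases after the RefSeq start (GRCm38.p6), and Psmd7 and Psmb7 were not in the promoter table. The windows lie at chr11:97703184-97703483 (plus strand), chr3:95042565-95042864 (minus), chr14:55578244-55578543 (plus), chr14:54617946-54618245 (minus) and chr11:70525107-70525406 (plus). Capitals mark matches, on either strand, to GAAA, any 2 bases and GAAA (a core of interferon response elements), TGACNNNGC (a core of the antioxidant response element, which Nfe2l1 and Nfe2l2 can bind) or CCAAT (the CCAAT box), and no matches overlapped in these windows.
Psmb3: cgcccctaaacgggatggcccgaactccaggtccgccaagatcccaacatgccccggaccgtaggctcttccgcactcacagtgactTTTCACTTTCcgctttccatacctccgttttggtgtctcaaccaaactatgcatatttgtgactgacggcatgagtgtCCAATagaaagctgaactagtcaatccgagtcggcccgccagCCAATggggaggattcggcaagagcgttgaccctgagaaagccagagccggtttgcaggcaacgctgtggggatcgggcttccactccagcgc
Psmd4: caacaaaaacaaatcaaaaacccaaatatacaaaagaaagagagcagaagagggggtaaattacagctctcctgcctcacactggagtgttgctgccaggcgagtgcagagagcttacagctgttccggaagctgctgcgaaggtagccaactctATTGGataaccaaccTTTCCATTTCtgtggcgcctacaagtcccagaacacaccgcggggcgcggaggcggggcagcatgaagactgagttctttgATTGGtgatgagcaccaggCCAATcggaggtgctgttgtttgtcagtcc
Psme1: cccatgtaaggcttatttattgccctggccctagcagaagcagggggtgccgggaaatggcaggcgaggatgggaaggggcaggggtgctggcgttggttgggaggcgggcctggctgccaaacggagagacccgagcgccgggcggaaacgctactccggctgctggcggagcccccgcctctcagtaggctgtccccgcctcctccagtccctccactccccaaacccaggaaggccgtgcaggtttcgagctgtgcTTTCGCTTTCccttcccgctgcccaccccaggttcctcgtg
Psmb5: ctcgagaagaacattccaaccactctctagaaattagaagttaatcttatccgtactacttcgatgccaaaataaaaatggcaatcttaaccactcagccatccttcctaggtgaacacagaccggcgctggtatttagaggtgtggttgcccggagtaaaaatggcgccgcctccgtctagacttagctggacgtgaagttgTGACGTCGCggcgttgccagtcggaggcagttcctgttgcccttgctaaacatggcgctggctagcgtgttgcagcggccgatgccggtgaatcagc
Psmb6: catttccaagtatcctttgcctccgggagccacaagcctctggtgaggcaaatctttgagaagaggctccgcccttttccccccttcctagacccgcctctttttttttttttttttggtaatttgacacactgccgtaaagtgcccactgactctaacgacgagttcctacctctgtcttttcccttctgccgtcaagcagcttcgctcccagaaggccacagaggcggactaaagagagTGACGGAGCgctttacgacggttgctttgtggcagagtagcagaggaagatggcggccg
Psmb3, Psmd4 and Psme1 each held 1 match to the paired GAAA motif, all on the opposite strand. Matches began 163 bases before the start in Psmb3 and 80 bases before it in Psmd4, and lay after the start in Psme1. The motif occurred in 5 of the 38 proteasome genes found in the promoter table (13.2%), namely Psmb3, Psmd4, Psmd9, Psme1 and Psmg4, beside 3.44% of 32851 promoters of the same length. Of these 5 genes, Psme1 was higher in Ptgs-deficient TAMs in every library, while Psmb3 and Psmd4 were lower. Psmb5 and Psmb6 each held 1 match to TGACNNNGC, found in 6 of 38 proteasome genes (15.8%) and in 12.4% of all promoters. CCAAT was found in 13 of 38 (34.2%), beside 37.4% of all promoters. For each motif a proteasome gene counted if any of its promoters matched (41 promoters for the 38 genes). The shares over all promoters count each promoter, so the units differ. A match describes the letters in the window and does not show that a factor binds there.

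The 7 tested alpha ring genes, which build the outer rings and the gate of the core, all had fold changes above 0, with a median of 0.58 on the log2 scale and a range from 0.26 to 1.29, where 50.7% of all tested genes were above 0. None was called, none separated the groups, and 1 had an unadjusted p under 0.05. Psma4 (chr9:54950790-54958030) stood at 128, 47.3 and 102 CPM in Ptgs-competent replicates 1, 2 and 3 and at 92.5, 303 and 281 CPM in Ptgs-deficient replicates 1, 2 and 3. Ptgs-deficient replicate 1 lay within the Ptgs-competent range and the other two above it. Its log2 fold change was 1.29 (SE 0.56, adjusted p = 0.519 by edgeR), and the adjusted p ranged from 0.371 to 0.905 when single libraries were left out. Exons of Psma4 overlap AY074887 on the opposite strand, whose reads cannot be told apart if strand was not used in counting. Stretches of 50 bases in its 3′ end also occur in another annotated gene (19.5% of them), as they do for Psma3 (21.0%) and Psma5 (38.2%).

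Psma6 had 23.4, 66.8 and 46.8 CPM in Ptgs-competent TAMs and 40.9, 120 and 141 CPM in Ptgs-deficient TAMs, a log2 fold change of 1.14 (SE 0.70, adjusted p = 0.859 by edgeR). Psma3 had 209, 32.8 and 131 CPM against 225, 168 and 274 CPM, a log2 fold change of 0.84 (SE 0.59, adjusted p = 0.942) that was 0.39 without Ptgs-competent replicate 2 and 1.45 without Ptgs-competent replicate 1. In both genes Ptgs-competent libraries reached into the Ptgs-deficient range. The remaining alpha genes had fold changes of 0.55 (Psma1), 0.26 (Psma2), 0.58 (Psma5) and 0.44 (Psma7) on the log2 scale. Psma2 was the most abundant alpha transcript by its mean over all libraries, with 348 to 498 CPM in the Ptgs-competent group and 437 to 585 CPM in the Ptgs-deficient group. Psma5 varied most, from 5.25 CPM in Ptgs-competent replicate 2 to 105 CPM in Ptgs-deficient replicate 2. Psma8, which takes the place of Psma7 in male germ cells, had 68 counts in Ptgs-competent replicate 1 and 0 in the other 5 libraries, and was not tested.

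Of the 7 tested beta ring genes, 6 had fold changes below 0, also without Ptgs-competent replicate 3, and the median was −0.57 on the log2 scale. Psmb3, a beta subunit without a peptidase site (chr11:97703399-97713500), stood at 377, 210 and 292 CPM in Ptgs-competent TAMs and at 186, 176 and 126 CPM in Ptgs-deficient TAMs. The lowest Ptgs-competent value was above the highest Ptgs-deficient value by a narrow margin. The log2 fold change was −0.85 (SE 0.38, adjusted p = 0.552 by edgeR), with a 95% interval from −1.69 to −0.014. A share of 21.6% of its 3′ end sequence, cut into stretches of 50 bases, also occurs in other annotated genes.

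Among the catalytic subunits, Psmb6 (chr11:70525367-70527858) had 446, 178 and 352 CPM in Ptgs-competent and 219, 203 and 237 CPM in Ptgs-deficient libraries. Ptgs-competent replicate 2 was the lowest of all 6, so that the groups overlapped, and the log2 fold change was −0.57 (SE 0.39, adjusted p = 0.934 by edgeR), with −0.27 without Ptgs-competent replicate 1 and −0.86 without Ptgs-competent replicate 2. Psmb5 (chr14:54614119-54618022) had 8.29, 84.5 and 88.8 CPM against 45.3, 29.1 and 32.7 CPM. Ptgs-competent replicate 1 lay below all Ptgs-deficient libraries and the other two above them, and the log2 fold change was −0.76 (SE 0.96, adjusted p = 0.9995), with −1.28 without Ptgs-competent replicate 1 and −0.31 without Ptgs-competent replicate 3. By limma voom the Psmb5 estimate was −0.065. Psmb5 counts are uncertain, since 51.4% of its 3′ end stretches also occur in Gm3375. Psmb7 (chr2:38588036-38644087) had 25.0, 33.8 and 32.8 CPM against 14.8, 74.2 and 33.1 CPM, a log2 fold change of 0.41 (SE 1.02, adjusted p = 0.9995) that turned to −0.35 without Ptgs-deficient replicate 2. Its exons overlap Nek6 on the opposite strand.

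The other beta genes overlapped between groups as well. Psmb4 had the highest mean of all 46 genes over all libraries, at 456 to 559 CPM in the Ptgs-competent and 332 to 553 CPM in the Ptgs-deficient group (log2 fold change −0.21). Psma2 (437 to 585 CPM) exceeded it in every Ptgs-deficient library. Psmb1 had 295 to 457 CPM against 222 to 394 CPM (−0.23). Psmb2 stood between 33.5 and 72.0 CPM in 5 libraries and at 0.547 CPM in Ptgs-deficient replicate 1. Psmb11, the thymus-specific catalytic subunit, had 0 counts in every library, which allows up to 0.357 CPM in the deepest of them.

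**Figure D2:**
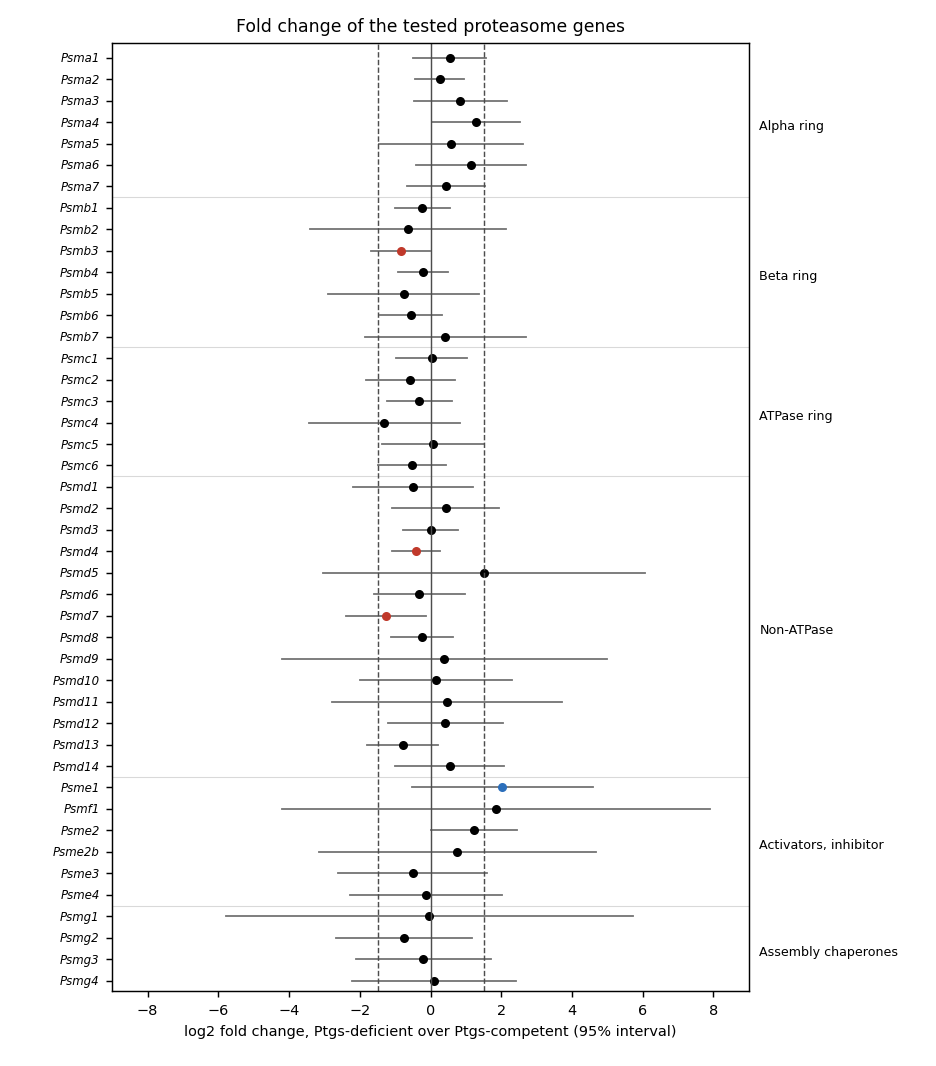
Log2 fold change (Ptgs-deficient over Ptgs-competent) and 95% interval of the 44 tested proteasome genes by group, with the median of all tested genes as a solid line and the fold required for a call as dashed lines. Colored points mark genes whose groups did not overlap (blue, higher in Ptgs-deficient; red, lower), and all 7 alpha ring points lie above 0 while 6 of 7 beta ring points lie below it.

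The balance of alpha and beta ring transcripts within a library does not depend on scaling between libraries. Alpha ring transcripts made up 44.7%, 37.7% and 38.2% of the constitutive genes of both rings in Ptgs-competent replicates 1, 2 and 3 and 53.1%, 58.1% and 59.3% in Ptgs-deficient replicates 1, 2 and 3. The share was 40.2% ± 3.9 (SD, n = 3) against 56.8% ± 3.3 (SD, n = 3), and every Ptgs-deficient library was above every Ptgs-competent library. Psmb8, Psmb9 and Psmb10 also enter the beta ring, and with them counted there, a choice made after seeing the data, the alpha share was 38.0%, 33.5% and 35.3% against 39.3%, 43.3% and 43.1%. The groups were still apart, but the difference of the means was 6.29 percentage points in place of 16.7. The summed alpha level was 1554, 780 and 1051 CPM against 1152, 1906 and 1956 CPM, and the summed level of the constitutive beta genes 1926, 1291 and 1702 CPM against 1020, 1373 and 1341 CPM, each with overlapping ranges. Both shares were formed after the values of the rings were known and are descriptions without a test. All 7 alpha fold changes stayed above 0 in each of 15 alternative analyses (an eighth gene, Psma8, entered 1 of them and lay below 0), and the beta median stayed below 0 in all 15, moving to −0.028 without Ptgs-deficient replicate 1. When single libraries were left out, the alpha median ran from 0.31 (without Ptgs-competent replicate 2) to 0.94 (without Ptgs-competent replicate 1). It was 0.91 without Ptgs-competent replicate 3, 1.14 by limma voom and 1.03 in a fit with replicate number as a block. The core particle made up 56.7%, 47.6% and 50.7% of core and regulatory particle transcripts against 59.5%, 59.0% and 56.4%, with overlap, for the constitutive genes alone. With the inducible genes in the core it was 60.6%, 50.5% and 52.7% against 66.5%, 65.95% and 63.98%, without overlap.

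**Figure D3:**
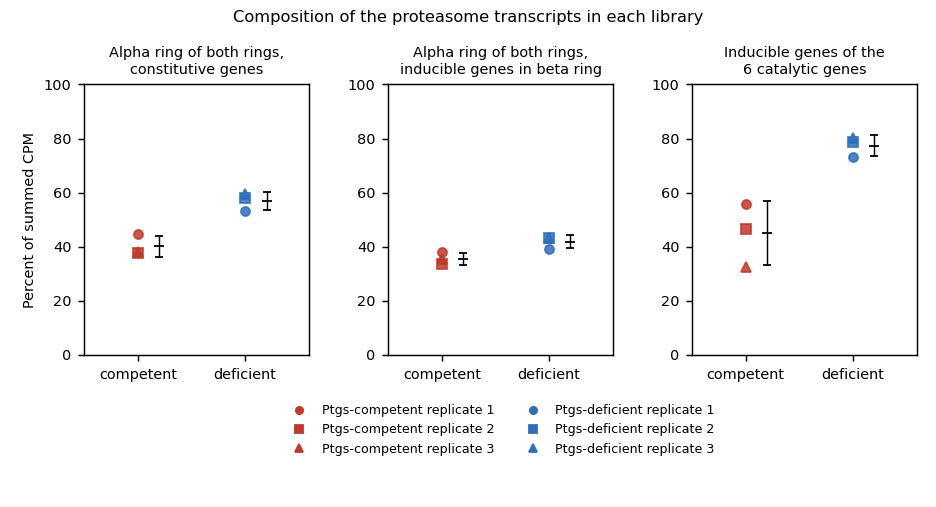
Percent of summed CPM in each library taken by the alpha ring among the constitutive genes of both rings, by the alpha ring with Psmb8, Psmb9 and Psmb10 counted in the beta ring, and by these 3 inducible genes among the 6 catalytic genes, with mean ± SD (n = 3) in black. The groups were apart in each panel, and the gap in the alpha share was narrower with the inducible genes included (35.6% against 41.9% in place of 40.2% against 56.8%).

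The 6 ATPases of the regulatory particle (Psmc1 to Psmc6), which unfold substrates, had a median log2 fold change of −0.42, with 2 above 0 and 4 below, and none had an unadjusted p under 0.05. Psmc4 showed the lowest estimate of the 44 tested constitutive genes, with 118, 18.9 and 83.4 CPM in Ptgs-competent and 9.31, 25.1 and 54.6 CPM in Ptgs-deficient TAMs (log2 fold change −1.31, SE 0.96, adjusted p = 0.960 by edgeR). Both groups spread over several-fold and overlapped, and the estimate ran from −2.08 without Ptgs-deficient replicate 3 to −0.78 without Ptgs-competent replicate 1. Psmc1 and Psmc5 lay close to 0 (0.034 and 0.082 on the log2 scale), while Psmc2, Psmc3 and Psmc6 were at −0.57, −0.31 and −0.53. The levels of these 5 genes ranged from 27.9 CPM (Psmc5, Ptgs-deficient replicate 1) to 336 CPM (Psmc3, Ptgs-competent replicate 1).

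The 14 Psmd genes, which form the non-ATPase part of the regulatory particle and include the base assembly chaperones Psmd5, Psmd9 and Psmd10, were split, with 8 above and 6 below 0 and a median of 0.077 on the log2 scale. Psmd7, the partner of the deubiquitinase Psmd14 (Psmd7 lies at chr8:107580381-107588464), had the smallest p of the 44 tested constitutive genes. It stood at 182, 122 and 215 CPM in Ptgs-competent and at 35.4, 86.2 and 94.6 CPM in Ptgs-deficient libraries, so that the groups did not overlap. The log2 fold change was −1.26 (SE 0.51, adjusted p = 0.460 by edgeR), and the adjusted p ranged from 0.439 to 0.735 when single libraries were left out. Psmd14 itself had 48.6, 45.8 and 69.8 CPM against 31.6, 73.0 and 134 CPM, with overlap and an estimate on the other side of 0 (log2 fold change 0.54).

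Psmd4, a receptor for ubiquitin chains (chr3:95032694-95042614), was lower in every Ptgs-deficient library, at 394, 400.1 and 361 CPM against 234, 327 and 308 CPM. The difference was small, with a log2 fold change of −0.41 (SE 0.31, adjusted p = 0.972 by edgeR) and an interval from −1.10 to 0.28. Psmd13, a lid subunit, had 136, 283 and 277 CPM against 86.7, 132 and 184 CPM (log2 fold change −0.79, SE 0.45, adjusted p = 0.806, and −0.52 without Ptgs-deficient replicate 1), and its exons overlap Sirt3 on the opposite strand. Ptgs-competent replicate 1 lay inside the Ptgs-deficient range. Psmd3 was the gene nearest to no difference, with 248, 266 and 169 CPM against 221, 258 and 203 CPM and a 95% interval from −0.78 to 0.79. Psmd2, a docking subunit for ubiquitin shuttles, and Psmd1, a scaffold of the base, each had 1 low Ptgs-competent library, replicate 2, at 32.7 and 21.8 CPM against 114 CPM or more in the others of that group. Psmd6, Psmd8 and Psmd12 had fold changes between −0.32 and 0.42. The sparse genes Psmd5, Psmd9 and Psmd11 had standard errors from 1.46 to 2.07, so that little can be read from them, and Psmd10 had 12.1, 77.0 and 26.7 CPM against 55.8, 31.2 and 41.8 CPM.

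Of the 6 activator and inhibitor genes, 4 had fold changes above 0, with a median of 0.99 on the log2 scale. Psme1 and Psme2, the alpha and beta subunits of PA28, which are inducible by interferon-gamma, lie near each other on opposite strands (chr14:55578123-55581529 and chr14:55587441-55591113). Psme1 had 59.0, 53.0 and 0.216 CPM in Ptgs-competent and 137, 170 and 152 CPM in Ptgs-deficient TAMs. The value of Ptgs-competent replicate 3, the library with the lowest sum of macrophage markers, was a single count. The other Ptgs-competent libraries also lay below all Ptgs-deficient libraries. The log2 fold change was 2.03 (SE 1.15, adjusted p = 0.805 by edgeR). Without Ptgs-competent replicate 3 it was 1.499, with an adjusted p = 0.302 by edgeR. In a fit with replicate number as a block it was 2.93, and by limma voom 3.56. Exons of Psme1 overlap Emc9 on the opposite strand.

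Psme2 had 234, 57.9 and 89.0 CPM against 185, 335 and 379 CPM, and Ptgs-competent replicate 1 exceeded Ptgs-deficient replicate 1. Its log2 fold change was 1.24 (SE 0.55, adjusted p = 0.554 by edgeR), and it ranged from 0.89 (without Ptgs-competent replicate 2, adjusted p = 0.683) to 2.03 (without Ptgs-competent replicate 1, adjusted p = 0.187) when single libraries were left out. Psme2 and Psme2b, a near copy, share 3′ end sequence (37.0% of the stretches in Psme2 and 68.5% in Psme2b occur elsewhere), so that reads could be lost or split between them. Psme2b had 32.0, 20.8 and 0 CPM against 29.7, 37.4 and 21.9 CPM. The other caps had estimates below 0, with log2 fold changes of −0.50 for Psme3 (PA28-gamma, a nuclear cap) and −0.14 for Psme4 (PA200), both with overlapping groups. Psme1 and Psme2 together made up 72.1%, 44.8% and 72.5% of Psme1 to Psme4 in the Ptgs-competent and 85.2%, 79.5% and 92.7% in the Ptgs-deficient libraries, without overlap. Psmf1, which encodes the proteasome inhibitor PI31, had 14.03, 0 and 1.08 CPM against 27.2, 0 and 27.7 CPM.

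The 4 core assembly chaperones of the Psmg family, which guide the building of the alpha ring, had 1 fold change above 0 and 3 below, with a median of −0.12 on the log2 scale and no p under 0.05. Psmg2 was at 59.6, 102 and 19.8 CPM against 33.8, 25.3 and 49.0 CPM (log2 fold change −0.75) and Psmg3 at 54.0, 47.8 and 33.2 CPM against 21.2, 50.9 and 45.3 CPM (−0.20). Psmg4 was low in Ptgs-competent replicate 2 (2.95 CPM, against at least 24.6 CPM in the other libraries), and Psmg1 was at 0 in Ptgs-competent replicate 2 and Ptgs-deficient replicate 1. Standard errors ran from 0.85 to 2.59, and no interval in this group lay wholly within 1.5 of 0.

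**Figure D4:**
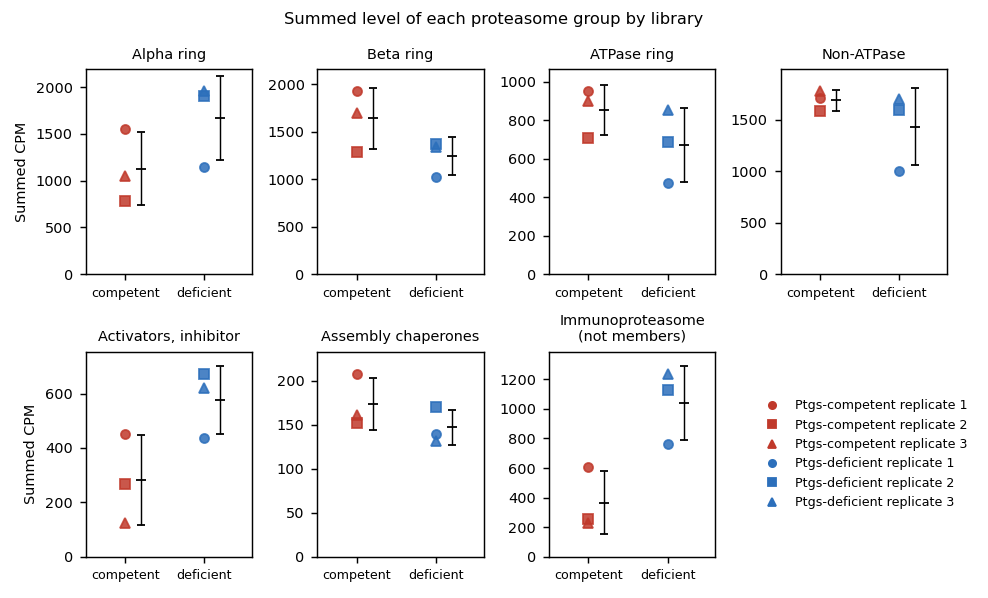
Summed TMM-scaled CPM of each of the 6 proteasome groups and of Psmb8, Psmb9 and Psmb10 in every library, with mean ± SD (n = 3) in black. Ranges overlapped in all 6 constitutive groups and were apart for the inducible subunits (227 to 609 CPM against 761 to 1237 CPM).

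The inducible catalytic subunits gave the closest comparison. Psmb8 had 384, 202 and 115 CPM in Ptgs-competent and 494, 643 and 792 CPM in Ptgs-deficient TAMs, and its log2 fold change was 1.46 (SE 0.45, adjusted p = 0.292 by edgeR). Psmb9 had 80.2, 11.7 and 57.6 CPM against 98.4, 273 and 178 CPM (log2 fold change 1.88, SE 0.70, adjusted p = 0.384), and Psmb10 had 144, 43.2 and 53.9 CPM against 169, 212 and 267 CPM (1.42, SE 0.53, adjusted p = 0.382). All 3 genes separated the groups (beside 19.0% of all tested genes) and none was called, and the estimates of Psmb8 and Psmb10 lay below the fold that a call requires. Psmb9 exons overlap Tap1 and Psmb8 exons overlap Gm20496, each on the opposite strand. Shared 3′ end sequence was not computed for these 3 genes. Psmb9 took 15.3%, 6.16% and 14.1% of Psmb6 plus Psmb9 in the Ptgs-competent and 31.0%, 57.4% and 42.9% in the Ptgs-deficient libraries, without overlap. Psmb10 took 85.2%, 56.1% and 62.2% of Psmb7 plus Psmb10 against 92.0%, 74.1% and 89.0%, and Psmb8 took 97.9%, 70.5% and 56.5% of Psmb5 plus Psmb8 against 91.6%, 95.7% and 96.04%, both with overlap. Over the 6 catalytic genes the inducible share was 56.0%, 46.4% and 32.4% against 73.2%, 78.7% and 80.4% (44.9% ± 11.9 against 77.4% ± 3.7, SD, n = 3). The groups were apart over all 6 libraries. The lowest value came from Ptgs-competent replicate 3, so that leaving it out could not have made them overlap. Whether the fold changes of the inducible and constitutive genes differ from each other was not tested.

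**Figure D5:**
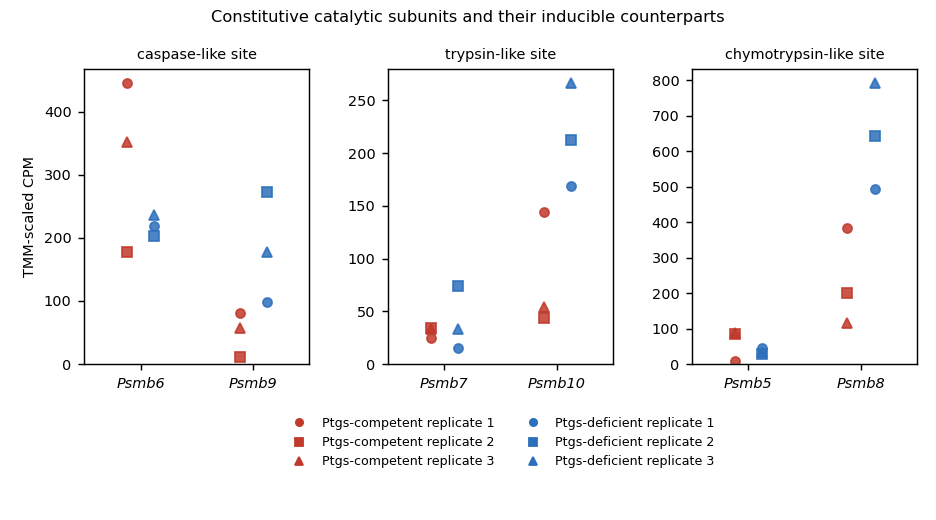
TMM-scaled CPM of each constitutive catalytic gene (Psmb6, Psmb7, Psmb5) and its inducible counterpart (Psmb9, Psmb10, Psmb8) in every library, 3 libraries per group, on separate linear axes from 0. The Ptgs-deficient libraries lie above the Ptgs-competent libraries for the 3 inducible genes and overlap with them for the 3 constitutive genes.

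Other proteasome genes outside the Psm numbering (24 genes, all tested) had 12 fold changes above and 12 below 0 and no call, and 5 had an unadjusted p under 0.05 (beside 8.83% of all tested genes), 4 of them higher in Ptgs-deficient TAMs. The groups lay apart for 7 of the 24 genes, 4 higher and 3 lower, beside 19.0% of all tested genes. Shfm1, a small lid subunit also known as Sem1, had 745, 734 and 759 CPM against 1026, 1848 and 1763 CPM (log2 fold change 1.05, SE 0.32, adjusted p = 0.279 by edgeR). Nploc4, an adaptor of the unfoldase Vcp, had 11.95, 2.46 and 8.84 CPM against 80.8, 56.8 and 87.3 CPM (3.27, SE 1.004, adjusted p = 0.292). Vcp, which extracts ubiquitinated proteins for the proteasome, was on the lower side, with 431, 481 and 415 CPM against 216, 223 and 259 CPM (−0.93, SE 0.30, adjusted p = 0.325). These 3 genes were among the 7. The remaining genes under this p, named after their values were seen, were Zfand5 (106, 111.1 and 110.8 CPM against 241, 207 and 192 CPM) and Ngly1 (0 in all Ptgs-competent libraries against 31.6, 12.9 and 12.8 CPM). Nfe2l1, the transcription factor that raises proteasome genes when proteasome activity falls and that Ngly1 processes, had 83.4, 62.9 and 129 CPM against 99.6, 92.5 and 19.0 CPM, and the core maturation factor Pomp 578, 615 and 764 CPM against 680, 538 and 456 CPM, both with overlap.

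Of the ubiquitin genes and ubiquitin-activating enzymes, only some are given, with no count over the list. Ubb, a polyubiquitin gene, had 357, 365 and 85.8 CPM against 740, 570 and 584 CPM (log2 fold change 1.23, SE 0.50, adjusted p = 0.4602 by edgeR), and its lowest value was again in Ptgs-competent replicate 3. Rps27a, which encodes ubiquitin joined to a ribosomal protein, had 1058, 775 and 1460 CPM against 974, 1052 and 1467 CPM (0.085, SE 0.33, adjusted p = 0.9995). Uba1, the main ubiquitin-activating enzyme, had 178, 230 and 187 CPM against 162, 218 and 241 CPM (0.057, SE 0.36, adjusted p = 0.9995). The groups overlapped for Rps27a and Uba1, and both estimates changed sign when single libraries were left out.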

How the data were processed

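The authors deposited whole-number read counts per gene for 6 TAM libraries, not normalized. Per the labels and the study's methods, QuantSeq FWD 3′ libraries were made from 800 pg of total RNA, reads were trimmed (BBDUK, fqtrim, cutadapt), aligned with STAR to GRCm38 and counted with featureCounts against Ensembl. Molecular identifiers, the strand setting and treatment of multiply aligned reads are not given in the sources used here, so floors cover counting error only. No other per-sample columns were present.

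edgeR 4.0.16 (in R 4.3.3) was run on the counts with filterByExpr (minimum count 10, minimum total 15), TMM, and the two-sided quasi-likelihood test over 8793 genes with Benjamini-Hochberg adjustment, calls following the study's thresholds. Standard errors were obtained from the ratio of each log2 fold change to the root of its F statistic. Intervals (95%) used the moderated degrees of freedom. limma 3.58.1 and DESeq2 1.42.0 served for alternatives. Pools are the replicates, and p-values measure the spread between them.

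Positions came from GENCODE on GRCm38 and promoters from RefSeq, whose table held 38 of 46 genes. Shared 3′ ends were exact 50-base stretches of the last 300 transcript bases also present in other annotated genes. Full statistics went to the catalytic genes, Psme1, Psme2, the 10 proteasome genes with the smallest p, and the 3 with the smallest p of each further list. Some genes of the ubiquitin list are not reported here. The proteasome genes and all lists were chosen with earlier results of these data known.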

Additional observations from a re-analysis of the deposited data

How the results depend on the processing

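No constitutive proteasome gene was called under any of the 15 alternatives. The number of calls over all genes was 19 and depended on the method: 252 without a filter on low counts, 133 with at least 10 counts in every library, 241 with the edgeR likelihood ratio test, 328 with the DESeq2 Wald test and 96 with limma voom. Leaving out single libraries gave between 0 (without Ptgs-competent replicate 1) and 25 calls, and between 0 (without Ptgs-deficient replicate 2, where 6.72% of all genes reached it) and 3 proteasome genes (6.82%) with an unadjusted p under 0.05, beside at most 12.9% of all genes (without Ptgs-competent replicate 1), with 1 when Ptgs-competent replicate 3 was dropped and 1 when Ptgs-deficient replicate 3 was. The cause was not tested. When single libraries were left out, the log2 fold change of Rps27a ranged from −0.11 (without Ptgs-competent replicate 2, and −0.1105 without Ptgs-deficient replicate 3) to 0.39, that of Uba1 from −0.061 (without Ptgs-deficient replicate 3, and −0.011 without Ptgs-competent replicate 1) to 0.24, and that of Psmb7 from −0.35 (without Ptgs-deficient replicate 2) to 0.86. The limma voom fit moved the median of all genes to 0.34 and that of the proteasome genes to 0.011. Nploc4 was called with at least 10 counts in every library (adjusted p = 0.0269) and by DESeq2 (0.0136), and Psmb8 by limma voom (0.0430). Below the fold required, Psmb8 also had an adjusted p of 0.0288 without the filter and 0.0484 by DESeq2, and DESeq2 gave 0.0207 for Shfm1 and 0.0383 for Vcp. With at least 10 counts in every library, 16 of 36 proteasome genes were above 0 and their median was −0.17. Precision was lowest for sparse genes, and 6 of 44 tested proteasome genes had a library with 3 counts or fewer.

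Same-numbered libraries did not deviate together (r = −0.049, −0.022 and −0.022), and neither did differently numbered ones (r from −0.017 to 0.045). No pairing was seen, but with 3 libraries per group these values cannot exclude one. A fit with the replicate block called 77 genes and no proteasome gene, with a median of 0.26 over all genes and −0.045 over the proteasome genes.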
